A study of Mus musculus with 12 samples.

Results

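The suppressors of cytokine signalling are 8 genes, Socs1 to Socs7 and Cish, and their levels were followed over 24 h in mouse macrophages treated with Ifn-β, the type I interferon that infected cells release. The members were taken by name: a transcript cluster, which is a set of probes read as one unit of transcription, counted where the platform annotation gave it exactly 1 gene symbol. By this rule 9 transcript clusters of 23332 on the array stood for the 8 genes, among 14860 genes with such a cluster. Socs3 had 2 clusters and is described by the one with the higher mean level, 6792614, with the other, 6785317, given beside it.

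Bone marrow of male Balb/c mice, 8 to 9 weeks old, was cultured with the growth factor Csf1 to give macrophages. All cultures received Ifn-β at 10 U/ml except those taken at 0 h, before treatment. The 12 samples were taken 0, 1, 2, 4, 8 and 24 h after Ifn-β, 2 arrays at each of the 6 times, and no genotype or second agent distinguished them. By the labels, the 2 arrays of a time are biological replicates whose RNA was drawn from different wells, so the p-values measure the spread between these samples, which may lie within 1 preparation of cells. No untreated culture accompanied the later times, so time in culture and time after Ifn-β cannot be told apart.

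The genes make a feedback loop. A cytokine bound to its receptor activates Janus kinases (Jaks), these phosphorylate Stat transcription factors, and Stats switch on Socs genes. The Socs proteins then bind phosphorylated receptors or Jaks through an SH2 domain, and their C-terminal SOCS box recruits elongins and a cullin ubiquitin ligase that marks the bound protein for degradation. Socs1 and Socs3 also carry a short region that blocks the Jak active site. Socs1 is the member best known for holding back interferon receptors, Socs3 for holding back the receptors of the interleukin-6 family, and Cish and Socs2 for holding back receptors that use Stat5. Socs4 and Socs5 have been linked to the receptor of epidermal growth factor, and Socs6 and Socs7 to insulin and Kit signalling.

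The promoter windows of Socs1, Socs3 and Cish show the letters through which Stats and interferon regulatory factors are known to bind. Windows of Socs2, Socs5, Socs6 and Socs7 are not described, so motifs cannot be set against timing over the family. RefSeq windows of 300 bases (250 before the transcript start and 50 from it onward, build GRCm38.p6) are described for Socs1, Socs3, Cish and Socs4. The array values of these 4 genes follow below. In the sequences, read 5′ to 3′ on the strand of the gene, capitals mark a Stat site of the GAS type (TTCNNNGAA, the same on both strands) or an interferon regulatory factor motif made of GAAA, any 2 bases and GAAA, searched on both strands. The Socs1 window lies at chr16:10785487-10785786 (minus strand), the Socs3 window at chr11:117969317-117969616 (minus strand) and the Cish window at chr9:107296409-107296708 (plus strand).
Socs1: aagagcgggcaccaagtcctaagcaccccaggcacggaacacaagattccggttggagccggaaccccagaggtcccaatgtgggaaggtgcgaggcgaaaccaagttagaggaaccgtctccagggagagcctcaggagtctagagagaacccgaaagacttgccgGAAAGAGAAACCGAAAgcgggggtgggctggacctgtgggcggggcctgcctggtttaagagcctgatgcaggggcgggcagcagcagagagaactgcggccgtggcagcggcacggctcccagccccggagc
Socs3: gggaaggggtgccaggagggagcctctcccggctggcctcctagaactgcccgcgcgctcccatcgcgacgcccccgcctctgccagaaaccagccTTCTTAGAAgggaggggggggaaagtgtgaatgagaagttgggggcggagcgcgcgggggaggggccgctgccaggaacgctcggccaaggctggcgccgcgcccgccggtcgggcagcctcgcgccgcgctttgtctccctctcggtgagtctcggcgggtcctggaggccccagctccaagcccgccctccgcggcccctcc
Cish: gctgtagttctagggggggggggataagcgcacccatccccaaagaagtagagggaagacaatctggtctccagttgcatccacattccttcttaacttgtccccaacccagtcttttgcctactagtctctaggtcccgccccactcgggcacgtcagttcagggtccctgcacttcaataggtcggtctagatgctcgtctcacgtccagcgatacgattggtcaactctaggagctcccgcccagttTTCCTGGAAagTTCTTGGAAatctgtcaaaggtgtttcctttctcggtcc

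The Socs1 window held 2 interferon regulatory factor motifs that overlap, at -83 to -74 and -77 to -68 from the start, and no GAS site. The Socs3 window held 1 GAS site, TTCTTAGAA at -154 to -146, and no motif of the other kind. The annotated Socs3 gene extends upstream to chr11:117970336, beyond this window, so the start used here lies inside the gene. The Cish window held 2 GAS sites, TTCCTGGAA at +1 to +9 and TTCTTGGAA at +12 to +20, just after the annotated start. The Socs4 window, at chr14:47276670-47276969 (plus strand), held neither. Of 32851 RefSeq mouse promoter windows of this length, 8.30% held a GAS site and 0.457% held 2 or more; 3.44% held the interferon regulatory factor motif and 0.225% held 2 or more. These matches describe letters only; binding was not measured.

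All values below are log2 levels made by RMA, a method that corrects background, puts all arrays on one distribution and summarises the probes of a cluster. A difference of 1 is a 2-fold difference, and levels were not compared between genes, whose probes differ. A change was called at an adjusted p under 0.05 (limma, Benjamini-Hochberg over all 23332 clusters) and at least 1.5-fold, and all comparisons with 0 h share the 0 h arrays. Array medians ran between 5.84 and 5.90. Upper quartiles ran between 7.77 and 8.15, lowest on 2 h array 12 (7.77) and 4 h arrays 15 (7.86) and 16 (7.89); arrays are called by the numbers in their labels. When the arrays were quantile-normalised again or centred on their medians, no called change of a Socs gene or Cish between 2 times lost its call; Socs5 no longer passed the F test under median centring, and Socs7 was also called at 2 h after the renewed quantile normalisation. The 7 measured macrophage markers lay above the array median on all 12 arrays, with a list median of 11.28 to 11.54. Of 35 measured markers of 8 other cell types, 4 did so. They were 2 of 5 fibroblast and stroma markers, 1 of 5 dendritic cell markers and 1 of 7 T cell markers. No marker of B cells, NK cells, neutrophils, erythroid cells or mast cells was among them. Of all these markers, Fcgr1 was called up at all 5 times, Cd14 down at 4 h and 8 h, Cd28 down at 4 h and up at 24 h, and Cd4 up at 24 h; their part in the results below was not tested. The arrays hold bulk RNA, so a change in the share of responding cells and a change per cell cannot be told apart.

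Over the time course 4 of 8 members were called up at some time, each for a limited period, and none was called down against 0 h. Over all clusters, 4.19% were called up and 4.96% down at some time. At 1 h Socs3 and Socs1 were called up, 2 of 8 members, where 0.467% of all clusters were called up and 0.0814% down. At 2 h there were 3, Socs1, Socs3 and Cish (all clusters: 1.54% up, 0.621% down). At 4 h there were 2, Socs1 and Socs7 (all clusters: 3.59% up, 3.95% down). At 8 h and 24 h limma called no member in either direction, where 1.5% and 0.613% of all clusters were called up and 0.544% and 0.836% down; without adjustment of p the members called were 0 at 8 h and 1, Socs6, at 24 h. The median change of the 8 members was 0.12, 0.54, 0.21, 0.00 and 0.13 on the log2 scale at 1, 2, 4, 8 and 24 h, against 0.02, -0.02, -0.07, -0.01 and 0.01 over all clusters. By the F test over the 6 times, 6 of 8 members varied (7.97% of all clusters did), with Socs2 and Socs4 the exceptions. Of these 6, Socs1 and Socs3 passed the F test without any 1 array, with adjusted p at most 1.93e-04 for Socs1 and 0.0076 for Socs3. The highest adjusted p with 1 array left out was 0.0780 for Socs6, 0.0839 for Socs7, 0.100 for Cish and 0.177 for Socs5.

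**Figure D1:**
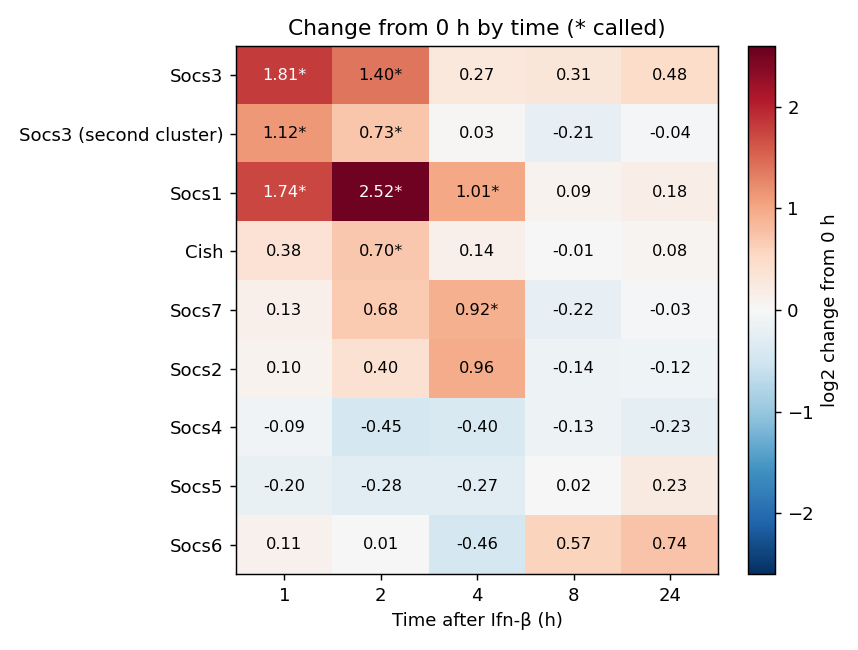
Change of each gene from 0 h on the log2 scale (colour and number) at 1, 2, 4, 8 and 24 h after Ifn-β, with both clusters of Socs3; an asterisk marks a called change. The asterisks lie at 1 h and 2 h for Socs3, at 1 h, 2 h and 4 h for Socs1, at 2 h for Cish and at 4 h for Socs7.

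Socs3, the inhibitor that binds the shared receptor chain of the interleukin-6 family, had its highest mean at 1 h. Its levels were 6.19 and 6.65 (0 h), 8.35 and 8.11 (1 h), 7.90 and 7.74 (2 h), 6.71 and 6.67 (4 h), 6.71 and 6.74 (8 h), 6.89 and 6.91 (24 h). The 1 h arrays stood above the 2 h arrays, the 2 h arrays stood above all later ones, and the later arrays lay close together just above the higher 0 h array. Against 0 h, Socs3 was 1.81 higher at 1 h (SE 0.16, 3.51-fold, adjusted p = 0.0012) and 1.40 higher at 2 h (2.64-fold, adjusted p = 0.0023), and both calls held without any 1 array. With only the 2 times compared in the fit both were lost (adjusted p = 0.20 and 0.108). The rise at 1 h ranked 36 of the 109 clusters called up then. At 4 h Socs3 fell by 1.54 against 1 h (adjusted p = 9.90e-04, where 6.3% of all clusters were called between these times) and stood 0.27 above 0 h (95% interval -0.09 to 0.63, adjusted p = 0.361). The 24 h arrays were 0.48 above 0 h (95% interval 0.12 to 0.84, adjusted p = 0.222), a difference that was not called.

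The second Socs3 cluster, whose neighbours in array numbering were mostly genes of the opposite strand (19 of 20), gave the same order of times at the top. Its levels, all below the array medians, were 4.49 and 4.51 (0 h), 5.51 and 5.74 (1 h), 5.31 and 5.15 (2 h), 4.40 and 4.65 (4 h), 4.14 and 4.43 (8 h), 4.37 and 4.54 (24 h). It was 1.12 higher at 1 h (SE 0.15, adjusted p = 0.0148) and 0.73 higher at 2 h (adjusted p = 0.0485) than at 0 h. Its 4 h, 8 h and 24 h arrays surrounded the 0 h arrays, whereas those of the first cluster lay above them. For neither cluster was the step between 1 h and 2 h called, with 2 h lower by 0.41 (95% interval -0.77 to -0.05, adjusted p = 0.467) in the first and by 0.40 (adjusted p = 0.456) in the second.

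**Figure D2:**
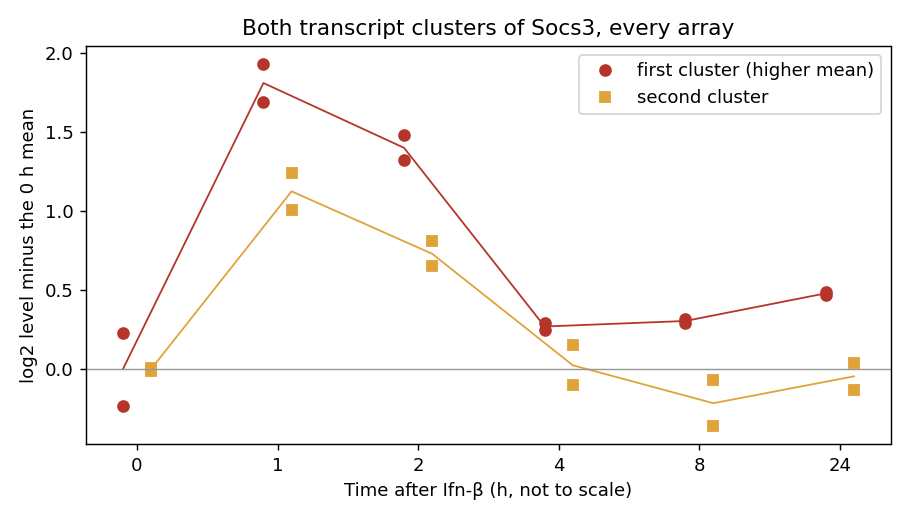
Log2 level minus the 0 h mean for both transcript clusters of Socs3; points are single arrays and lines join the means of 2 arrays at each time after Ifn-β. Both clusters stand highest at 1 h, with means 1.81 and 1.12 above 0 h.

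Socs1, which binds the Jak active site and interferon receptor complexes, had its highest mean 1 time point later than Socs3. Its means spanned the widest range of the family. Its levels were 7.86 and 7.80 (0 h), 9.59 and 9.55 (1 h), 10.43 and 10.28 (2 h), 8.80 and 8.88 (4 h), 7.84 and 7.99 (8 h), 7.95 and 8.07 (24 h). The pairs at 2 h, 1 h and 4 h stood apart from each other and from every other array, in that order of height, whereas the 8 h arrays overlapped those at 0 h and 24 h. The 2 arrays of a time differed by at most 0.15.

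Against 0 h, Socs1 was 1.74 higher at 1 h (SE 0.11, 3.34-fold, adjusted p = 1.35e-04), 2.52 higher at 2 h (5.76-fold, adjusted p = 6.20e-06) and 1.01 higher at 4 h (2.01-fold, adjusted p = 7.34e-04). All of these calls held without any 1 array, and with only the 2 times compared in the fit the 1 h call was lost (adjusted p = 0.0806). The rise ranked 39 of 109 clusters called up at 1 h, 42 of 359 at 2 h and 466 of 837 at 4 h. The further rise at 2 h over 1 h was 0.79 (adjusted p = 0.0206), the only member step called there (0.45% of all clusters). That step lost its call without 1 h array 5 or 8 or 4 h array 15 or 16, with adjusted p up to 0.160 and a step of 0.71 to 0.86.

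Socs1 then declined over 2 steps. At 4 h it fell by 1.51 against 2 h (adjusted p = 8.22e-04), which ranked 10 of the 184 clusters called down over that step, and at 8 h it fell by 0.93 against 4 h (adjusted p = 0.0031). Both falls held without any 1 array. At 8 h it was 0.09 above 0 h (95% interval -0.16 to 0.33, adjusted p = 0.804) and at 24 h 0.18 above 0 h (95% interval -0.06 to 0.42, adjusted p = 0.521).

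Cish, a Stat5 target whose protein occupies the receptor sites where Stat5 docks, showed a smaller pulse. Its highest mean was at 2 h, as for Socs1. Its levels were 5.29 and 5.02 (0 h), 5.51 and 5.56 (1 h), 5.97 and 5.75 (2 h), 5.22 and 5.37 (4 h), 5.16 and 5.13 (8 h), 5.22 and 5.25 (24 h). Both 2 h arrays stood above all others, both 1 h arrays came next, and the remaining 8 arrays overlapped. Cish was 0.70 higher at 2 h than at 0 h (SE 0.13, 1.63-fold, adjusted p = 0.0271) and ranked 312 of 359 clusters called up. At 8 h it had dropped by 0.72 against 2 h (adjusted p = 0.0304, with 1.76% of all clusters called). Both calls were close to the threshold: each was lost on leaving out 9 of the 12 arrays singly, with adjusted p up to 0.150 for the rise (change 0.57 to 0.84; it held only without 0 h array 2, 2 h array 10 or 2 h array 12) and up to 0.184 for the fall (change -0.83 to -0.61; it held only without 0 h array 2 or 4 or 2 h array 12). The 1 h arrays were 0.38 above 0 h (adjusted p = 0.519), and the step between 1 h and 2 h was not called (0.33, limma, adjusted p = 0.470). All Cish levels except that of 2 h array 10 lay below the array medians. Whether this low range narrowed its changes was not tested.

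Socs7, an SH2 and SOCS box protein linked to insulin signalling, had the latest highest mean of the 4, at 4 h. Its step between 2 h and 4 h was not called (0.24, limma, adjusted p = 0.628). Its levels were 6.80 and 6.91 (0 h), 7.02 and 6.95 (1 h), 7.76 and 7.31 (2 h), 7.57 and 7.99 (4 h), 6.54 and 6.74 (8 h), 6.79 and 6.87 (24 h). The 2 h and 4 h arrays overlapped each other and stood above all the rest, and both 8 h arrays lay below every 0 h array.

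At 4 h Socs7 was 0.92 higher than at 0 h (SE 0.18, 1.90-fold, adjusted p = 0.0171), which ranked 527 of 837, and 0.79 higher than at 1 h (adjusted p = 0.0360). At 2 h it was 0.68 higher than at 0 h, which was not called (adjusted p = 0.129). At 8 h it fell by 1.14 against 4 h (adjusted p = 0.0126, rank 144 of 377 falls), and at 24 h it fell by 0.95 against 4 h (adjusted p = 0.0158). These calls rest on single arrays. The rise over 0 h was lost without 0 h array 2 or 4 or 4 h array 16 (adjusted p up to 0.113), the rise over 1 h without any 1 of 10 arrays, all but 2 h arrays 10 and 12 (up to 0.198), the fall at 8 h without 4 h array 16 or 8 h array 18 or 23 (up to 0.108), and the fall at 24 h without 4 h array 16 or 24 h array 17 or 22 (up to 0.109).

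**Figure D3:**
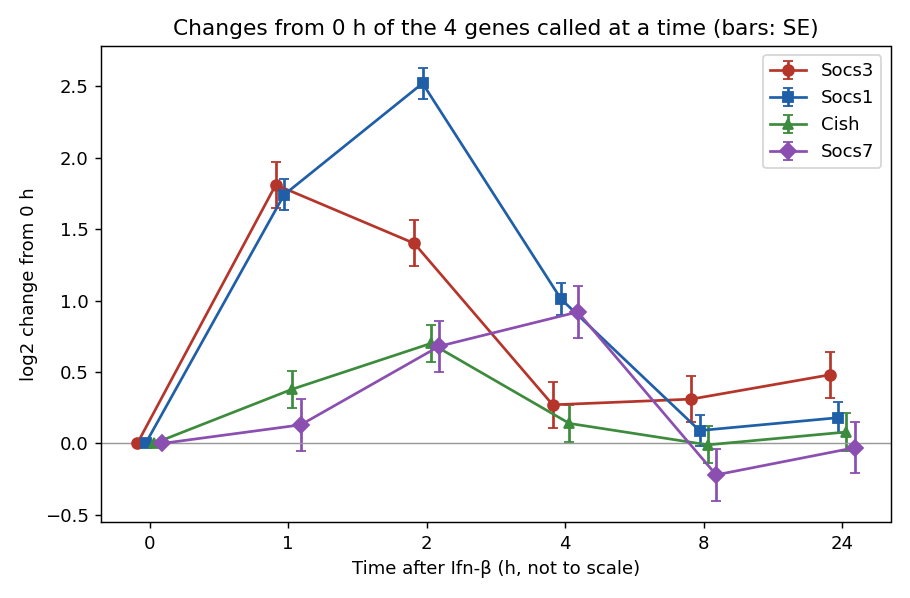
Fitted log2 change from 0 h with its SE (bars) against time after Ifn-β for the 4 genes called up at some time, 2 arrays per time. Socs3 is highest at 1 h (1.81), Socs1 and Cish at 2 h (2.52 and 0.70) and Socs7 at 4 h (0.92).

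The steps between neighbouring times were set against that of Socs1 by fitting the level of each cluster relative to Socs1 on the same array with limma, over the other 23331 clusters. Such a difference holds the size of a pulse as well as its timing, so it does not by itself show that 2 genes peaked at different times. Socs1 itself moved strongly, so most clusters differed from it over a step: 82.2% between 1 h and 2 h, 96.2% between 2 h and 4 h and 86.5% between 4 h and 8 h. A difference from Socs1 is therefore the usual case.

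Between 1 h and 2 h the step of Socs3 was 1.20 below that of Socs1 (value -1.20, SE 0.17, adjusted p = 5.35e-04), and the second Socs3 cluster gave -1.18 (adjusted p = 5.07e-04). The step of Cish over the same interval was also below that of Socs1 (-0.46, SE 0.12, adjusted p = 0.0072), whereas those of Socs7 (-0.23, SE 0.15, adjusted p = 0.169) and Socs2 (-0.48, SE 0.51, adjusted p = 0.390) were not separable from it. Without 1 h array 5, the step of Socs2 did differ from that of Socs1 (limma, adjusted p = 0.0293). Without any 1 array the adjusted p of Socs3 stayed at or below 0.0052 and that of Cish at or below 0.0478.

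Between 2 h and 4 h Socs7 moved 1.76 above the step of Socs1 (SE 0.15, adjusted p = 1.00e-05), where Socs1 fell by 1.51 and Socs7 gave 0.24 (adjusted p = 0.628). Cish moved 0.95 above it (adjusted p = 6.13e-05). Socs3 fell by 1.13 over this interval (adjusted p = 0.0113, rank 33 of 184 falls), and with Socs1 it was 1 of 2 members called where 2.17% of all clusters were. The Socs3 fall lost its call without 4 h array 15 or 16 (adjusted p up to 0.0949) and in the second cluster (change -0.70, adjusted p = 0.0541). Its difference from the Socs1 step was 0.38 (SE 0.17, adjusted p = 0.0533), whereas the second cluster gave 0.81 (adjusted p = 2.36e-04). Between 4 h and 8 h the steps of Socs7 (-0.21, SE 0.15, adjusted p = 0.199) and Socs2 (-0.17, SE 0.51, adjusted p = 0.755) were again not separable from that of Socs1, and Socs3 and Cish, already near their 0 h levels, lay 0.96 (adjusted p = 8.32e-04) and 0.78 (adjusted p = 4.32e-04) above it.

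Socs6, which has been linked to insulin receptor and Kit signalling, followed another course with a low point at 4 h and a high plateau at the end. Its levels were 10.81 and 10.53 (0 h), 10.70 and 10.86 (1 h), 10.68 on both arrays (2 h), 10.38 and 10.05 (4 h), 11.14 and 11.34 (8 h), 11.58 and 11.25 (24 h). Both 4 h arrays were below all others, and all 8 h and 24 h arrays were above all earlier ones. At 8 h Socs6 was 1.02 above 4 h (SE 0.17, 2.03-fold, adjusted p = 0.0145), ranking 107 of 391 clusters called up, and at 24 h 1.20 above 4 h (2.30-fold, adjusted p = 0.0037). The step between 4 h and 8 h held 3 of the 8 members, Socs6 up and Socs1 and Socs7 down, where 3.29% of all clusters were called; between 4 h and 24 h 6.92% of all clusters were called.

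No Socs6 change from 0 h was called. It was 0.46 lower at 4 h (95% interval -0.84 to -0.07, adjusted p = 0.150), 0.57 higher at 8 h (0.18 to 0.96, adjusted p = 0.168) and 0.74 higher at 24 h (0.36 to 1.13, adjusted p = 0.0836). The rise between 4 h and 8 h was lost without 4 h array 16 or 8 h array 18 or 23 (adjusted p up to 0.122), whereas that between 4 h and 24 h held without any 1 array. Between 8 h and 24 h limma called no member, also at an unadjusted p, where 1.21% of all clusters were called.

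Socs5, linked to epidermal growth factor receptor turnover, moved within a narrow range but with little spread. Its levels were 8.04 and 7.93 (0 h), 7.74 and 7.82 (1 h), 7.76 and 7.65 (2 h), 7.76 and 7.67 (4 h), 8.00 and 8.01 (8 h), 8.21 and 8.22 (24 h). The 1 h, 2 h and 4 h arrays were all below the 0 h arrays and the 24 h arrays were above all others. At 24 h Socs5 was 0.50 above 4 h (SE 0.10, adjusted p = 0.0160), 1.41-fold and so under the fold threshold. Against 0 h the largest differences were -0.28 at 2 h (95% interval -0.50 to -0.06, adjusted p = 0.248) and -0.27 at 4 h (adjusted p = 0.135).

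For Socs2 and Socs4 no variation over time was detectable with 2 arrays a time, with F test adjusted p of 0.610 and 0.568. Socs2, the inhibitor of growth hormone signalling, was measured at 4.76 and 3.81 (0 h), 3.61 and 5.15 (1 h), 5.17 and 4.20 (2 h), 5.04 and 5.45 (4 h), 4.30 and 4.00 (8 h), 4.02 and 4.32 (24 h). The 2 arrays of a time differed by 0.30 to 1.54, and neighbouring times in the order of means overlapped throughout. Every Socs2 level lay below the array medians (5.84 to 5.90), so a response of this gene may have gone undetected. The difference between 4 h and 0 h was 0.96 with a 95% interval of -0.26 to 2.18 (adjusted p = 0.332), a difference close in size to the one called for Socs7 but with a wider interval.

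Socs4, the closest relative of Socs5, was measured at 8.60 and 8.45 (0 h), 8.38 and 8.49 (1 h), 8.34 and 7.80 (2 h), 8.25 and 8.01 (4 h), 8.21 and 8.58 (8 h), 8.46 and 8.12 (24 h). Its highest mean was at 0 h and its lowest at 2 h, and neighbouring times in that order overlapped throughout. The difference between 2 h and 0 h was -0.45 (95% interval -0.94 to 0.03, adjusted p = 0.423).

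**Figure D4:**
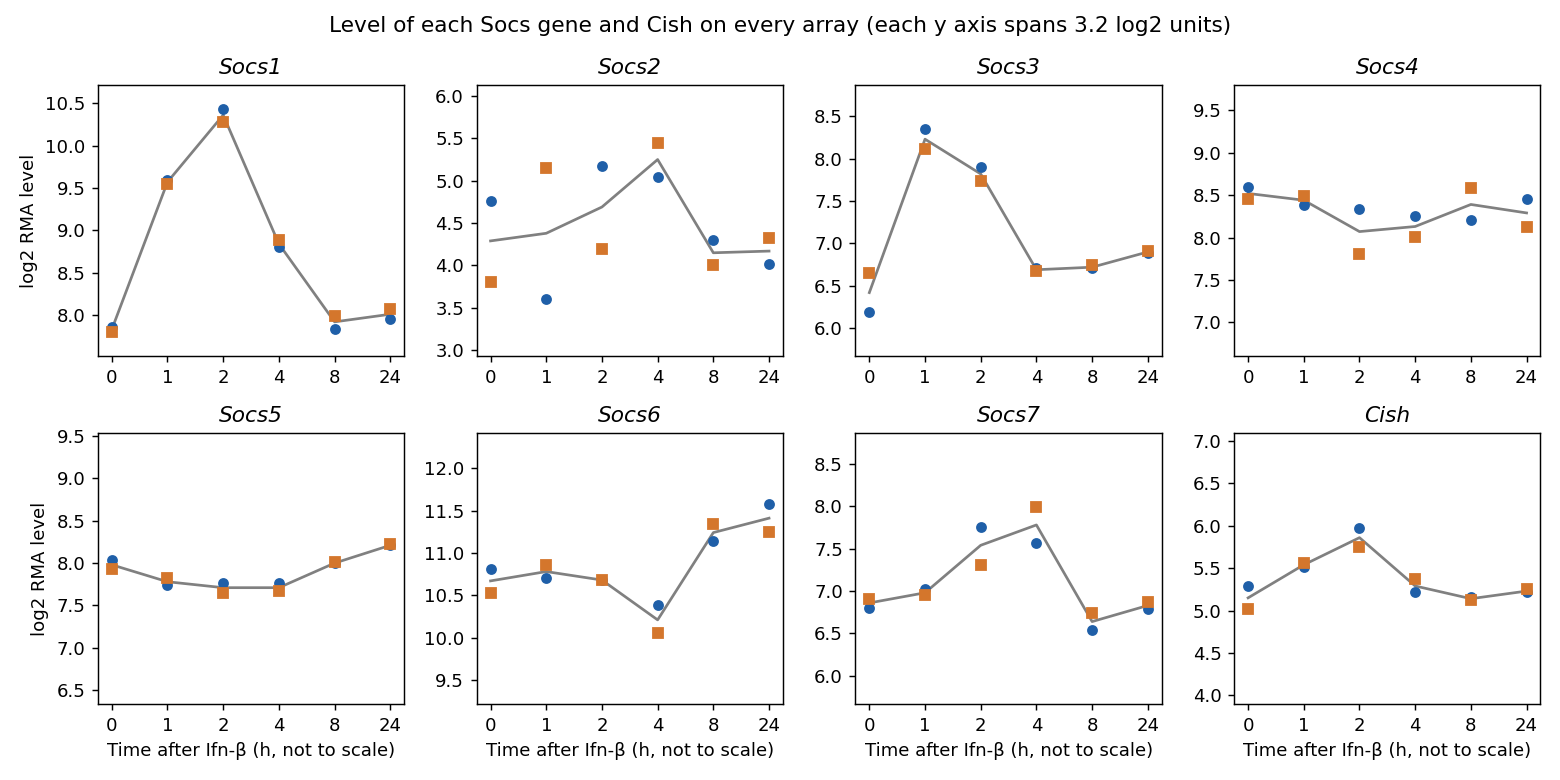
Log2 level of each of the 8 genes on every array against time after Ifn-β; circles and squares are the 2 arrays of a time, lines join their means, and every panel spans the same height. Socs1, Socs3, Cish and Socs7 rise and fall within 8 h, Socs6 is highest at 8 h and 24 h, and the 2 arrays of a time differ by up to 1.54 for Socs2.

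The genes whose course over the 12 arrays was most like that of a pulsing member were taken from 1608 genes called at some time, as a description by Pearson's r over arrays that share their times. Arid5a (r = 0.97), an RNA-binding regulator of cytokine transcripts, Bach1 (0.97), a repressor of haem oxygenase, and Sowahc (0.96) were most like Socs1, all with their highest mean at 2 h. Arid5a averaged 10.03 at 2 h, against 7.09 at 0 h. For Socs3 they were Nfkbiz (0.96), an atypical IκB protein, Prdm1 (0.93), a transcriptional repressor, and Nfil3 (0.91), a leucine zipper repressor. Nfkbiz and Prdm1 were also highest at 1 h and Nfil3 at 2 h. For Cish they were Dusp16 (0.97), a phosphatase of MAP kinases, F3 (0.95), which encodes tissue factor, and again Bach1 (0.92), and for Socs7 Mgat1, Sav1 and Sertad1 (0.97 each), with their highest means at 4 h.

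Beside the 8 genes, 6 lists of pathway genes were followed. Of all clusters, 4.19% were called up and 4.96% down at 1 or more of the 5 times. At 4 h, when 3.59% of all clusters were called up and 3.95% down, calls numbered 3 up and 0 down among 12 receptor and Jak-Stat genes, 1 and 2 among 11 other inhibitors, 1 and 0 among 11 partners of the SOCS box ligase, 2 and 1 among 24 other SOCS box proteins, 1 and 2 among 23 receptors and adaptors that Socs proteins restrain, and 5 and 1 among 14 other Stat targets. The median changes of these lists at 4 h, in the same order, were 0.18, -0.08, 0.01, -0.03, -0.03 and 0.30 on the log2 scale, against -0.07 over all clusters.

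Among the signalling genes upstream, 12 of 14 listed receptor, Jak, Stat and Irf9 genes were measured, and 4 were called up and 0 down at some time (all clusters: 4.19% and 4.96%). Stat2, the subunit of the type I interferon transcription factor ISGF3, had 11.34 and 11.40 at 4 h, against 9.01 and 8.81 at 0 h (2.46 higher, SE 0.10, adjusted p = 3.45e-06), and was called up at all 5 times. Its calls at 1 h and 24 h did not hold without every single array, with adjusted p of up to 0.119 (without 0 h array 4 or 1 h array 5 or 8) and 0.0523 (without 24 h array 17). Jak2, a kinase that Socs1 binds, had 9.96 and 9.88 at 4 h, against 8.01 and 7.74 at 0 h (2.04 higher, SE 0.17, adjusted p = 1.59e-04), and was called at that time alone. Stat3, the factor that drives Socs3 in many cells, was 1.23 higher at 4 h than at 0 h (SE 0.13, adjusted p = 6.54e-04). It was also called up at 2 h (0.70 higher, limma, adjusted p = 0.0286) and 8 h (0.67 higher, adjusted p = 0.0362). The calls of Stat3 at 2 h and 8 h were lost without single arrays. Thus Stat2, Jak2 and Stat3 had their largest rise at 4 h, after the highest means of Socs1 and Socs3. Irf9, the DNA-binding subunit of ISGF3, was 0.77 higher at 2 h (SE 0.12, adjusted p = 0.0132) and lost the call without 0 h array 4 (adjusted p = 0.102). At 8 h Irf9 was called up again (0.59 higher, limma, adjusted p = 0.0445), a call also lost without single arrays. At 4 h and 24 h Irf9 was 0.53 and 0.59 higher and was not called. The other 8 genes lay between -0.48 and 0.40 of 0 h and were not called.

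Inhibitors of the same pathway from other families were called at 4 h alone. Of 11 of 12 listed genes that were measured (phosphatases, Pias proteins, adaptors and a ligase), 1 was called up and 2 down (all clusters at some time: 4.19% and 4.96%). Ptpn2, a phosphatase of Jaks and Stats, was 0.75 higher, Cbl, a ubiquitin ligase, was 0.64 lower (change -0.64), and Pias3, an inhibitor of Stat3, was 0.62 lower (change -0.62). Each of these calls was lost on leaving out single arrays, 4 of the 12 for Cbl and 10 for the others, with adjusted p up to 0.221 for Ptpn2, 0.123 for Cbl and 0.211 for Pias3. When the arrays were quantile-normalised again, Cbl (-0.49) and Pias3 (-0.45) were under the fold threshold.

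Of 11 measured partners in the ligase that Socs proteins recruit (elongins, cullins, RING subunits and others), 1 was called up and 0 down at some time (all clusters: 4.19% and 4.96%). This gene was Cul2, the cullin that Socs1 can also use. It had 9.85 and 9.74 at 4 h, against 8.97 and 8.82 at 0 h (0.90 higher, SE 0.14, adjusted p = 0.0059), and lost the call without 4 h array 15. Cul5, the cullin most Socs proteins bind, lay between -0.07 and 0.14 of its 0 h level. The widest uncalled change was that of Elob, which encodes elongin B, at 24 h (-1.38, SE 0.42, adjusted p = 0.186).

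Of 24 other measured genes for proteins with a SOCS box, 2 were called up and 1 down at some time, against 4.19% and 4.96% of all clusters. Asb13, whose protein joins ankyrin repeats to a SOCS box, had 9.55 and 9.38 at 4 h, against 7.14 and 7.02 at 0 h (2.38 higher, SE 0.15, adjusted p = 2.94e-05), and was 1.28 higher at 8 h (adjusted p = 0.0026). At 4 h the called changes of the Socs family were 1.01 for Socs1 and 0.92 for Socs7. Spsb1, a SOCS box protein that binds inducible nitric oxide synthase, was 0.84 higher at 2 h (adjusted p = 0.0251), and Rab40c, a SOCS box GTPase, was 0.98 lower (change -0.98, adjusted p = 0.0205). Both calls at 2 h were lost without single arrays, among them 0 h array 2, with adjusted p up to 0.155 for Spsb1 and 0.158 for Rab40c.

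The list of 23 measured genes whose products Socs proteins are known to restrain held cytokine receptors, growth factor receptors such as Egfr and Insr, and the adaptors Irs1 and Tirap. Of these, 1 was called up and 2 down at some time (all clusters: 4.19% and 4.96%), with the widest changes at 4 h. Il12rb1, a chain of the interleukin-12 and interleukin-23 receptors, had 6.52 and 6.58 at 4 h, against 5.56 and 5.48 at 0 h (1.03 higher, SE 0.10, adjusted p = 3.44e-04). Kit, the stem cell factor receptor, had 5.47 and 5.43 at 4 h, against 6.69 and 6.52 at 0 h (change -1.16, SE 0.13, adjusted p = 0.0012). Ifngr1, the ligand-binding chain of the Ifn-γ receptor, had 8.27 and 7.96 at 4 h, against 9.31 and 9.21 at 0 h (change -1.15, SE 0.21, adjusted p = 0.0132), and was lost without 0 h array 2 or 4 or 4 h array 16 (adjusted p up to 0.0977). In all of these the 4 h arrays did not overlap the 0 h arrays.

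Other Stat target genes, 14 measured of 16 listed, moved in both directions, with 5 called up and 3 down at some time (all clusters: 4.19% and 4.96%). Irf1, an interferon regulatory factor, had 11.20 and 11.10 (1 h), 11.69 and 11.59 (2 h), 10.43 and 10.67 (4 h), 9.02 and 9.18 (8 h), against 7.90 and 7.81 (0 h). It was 3.79 higher at 2 h (SE 0.12, adjusted p = 1.45e-06) and was still called at 8 h (1.25 higher, adjusted p = 7.87e-04). Pim1, a kinase gene, was 1.19 higher at 2 h (adjusted p = 0.0055; 0.0509 without 0 h array 2). Fos, an AP-1 subunit, had 6.53 and 6.36 at 2 h, against 8.85 and 8.69 at 0 h (change -2.33, SE 0.13, adjusted p = 3.88e-05), and Myc had 7.86 and 7.17 at 2 h, against 9.80 and 9.87 at 0 h (change -2.32, SE 0.21, adjusted p = 5.63e-04).

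**Figure D5:**
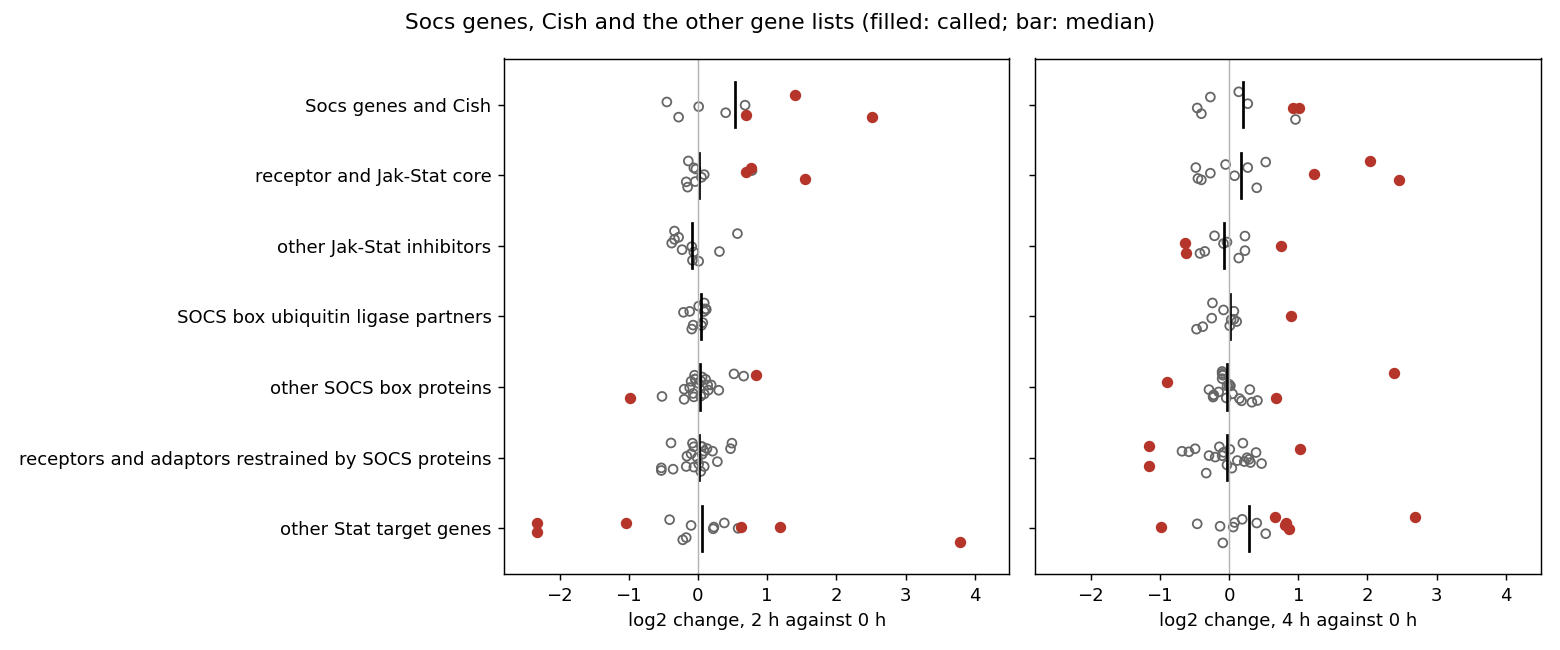
Log2 change from 0 h of every measured gene of the Socs family with Cish and of the 6 other lists at 2 h (left) and 4 h (right); filled points were called and the bar is the median of the list. The medians of the Socs genes with Cish were 0.54 at 2 h and 0.21 at 4 h, against -0.02 and -0.07 over all clusters.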

How the data were processed

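The data were 12 Affymetrix Mouse Exon 1.0 ST arrays, 2 at each of 6 times after Ifn-β. The authors made the deposited log2 values with RMA in Affymetrix Expression Console at the core gene level, with versions not given in the sources used here; the values ran from 0.81 to 14.20 and were used without further normalisation or filter. The arrays give no depth, and their number limits the precision. Clusters were named through the platform annotation (14996 with 1 symbol, 1019 with several, 7317 with none), and a gene with several clusters by the one with the highest mean.

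All clusters were fitted together in limma 3.58.1 (lmFit, eBayes; R 4.3.3), with the 6 times as groups and no covariate (residual degrees of freedom 6, prior 2.31). Tests were two-sided, with Benjamini-Hochberg adjustment within each comparison, and calls needed an adjusted p under 0.05 and 1.5-fold. The fit was tested on simulated data. The fit of levels relative to Socs1 was added after the values were seen. The members and gene lists were chosen with earlier results of these data known. Named besides the 8 members were at most 4 genes called in each list, by size of change, and the 3 genes most correlated with each member called against 0 h; Cul5 and Elob were named after their values were seen. The coordinates and promoter sequences are those of RefSeq, GRCm38.p6; the build of the array annotation is not given in the sources used here, and Socs2, Socs5, Socs6 and Socs7 were without a printed window. Tables were made with pandas 2.3.3 and plots with matplotlib 3.10.9 in Python 3.11.15.

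Results were recomputed with the second Socs3 cluster, with p unadjusted, without a fold threshold, at 2-fold, in a fit of only the 2 times compared, with trend and robust eBayes, array weights, quantile normalisation again, median centring, the lowest 30% of clusters left out, clusters with 1 symbol only, the 8 h and 24 h arrays left out, and each array left out in turn.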

Additional observations from a re-analysis of the deposited data

How the results depend on the processing

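No called change of a member between 2 times reversed its sign under the alternatives run. Of 659 repeats of these 29 changes, 546 kept the call and 113 lost it; of 821 repeats for the 36 called changes of named list genes, 661 kept it and 160 lost it. Fitting only the 2 times compared, which leaves fewer arrays to estimate the spread, left 0 of 2 members called up at 1 h, 1 of 3 at 2 h and 1 of 2 at 4 h, and 0 members for the steps 2 h over 1 h, 4 h over 2 h and 8 h over 4 h, against 1, 2 and 3. Requiring 2-fold left 1 member up at 4 h and 0 for 2 h over 1 h. Leaving out the 8 h and 24 h arrays left 1 up at 4 h, 0 for 2 h over 1 h and 1 for 4 h over 2 h. Array weights, 2-fold and leaving out the 8 h and 24 h arrays each dropped Cish at 2 h (2 up in place of 3), quantile normalisation again added Socs7 there (4), and the F test passed 5 of 8 with array weights (without Cish) and with median centring (without Socs5). Array weights left 0 for 2 h over 1 h and 1 for 4 h over 2 h, and the second Socs3 cluster left 1 for 4 h over 2 h. At 24 h, 1 member (Socs6) in place of 0 was called up with an unadjusted p, with trend and robust eBayes, with the lowest 30% of clusters left out and with 1-symbol clusters only. The cause of these shifts, other than fewer arrays or another threshold, was not tested. With each array left out in turn, the members called up numbered 2 to 2 (1 h), 2 to 3 (2 h), 1 to 2 (4 h), 0 to 0 (8 h) and 0 to 0 (24 h); none was called down. The steps gave 0 to 1 (2 h over 1 h), 1 to 3 (4 h over 2 h), 1 to 3 (8 h over 4 h) and 0 to 0 (24 h over 8 h), and the F test 2 to 6, with Socs1 and Socs3 in each. The remaining array of a time was taken to vary as the arrays elsewhere do. No paired analysis was possible because the array numbers of the times are all different.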

Other observations

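The 2 Socs3 clusters sit among neighbours of different strand. Of the 20 clusters with a named gene that lie nearest in array numbering to 6792614, all were genes of chromosome 11 and 20 lay on the minus strand, the strand of Socs3. Of the 20 nearest to 6785317, all were again genes of chromosome 11, with 19 on the plus strand and 1 on the minus strand. The probe positions of the clusters were not used here.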
